A study of Homo sapiens with 2 samples.

Results

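The cytosolic heat shock proteins described here are 10 genes chosen by name, HSPA1A, HSPA1B, HSPA8, HSPA4, HSP90AA1, HSP90AB1, HSPH1, DNAJB1, HSPB1 and BAG3, among the 23614 gene names listed for wild-type (WT) and PERK-KO HEK293 cells. All 10 were found on the main chromosomes in both samples and all 10 passed the filter on low values. HEK293 is a human embryonic kidney line, and both genotypes had been kept in OXPHOS medium for 12 h before RNA was collected, a medium without glucose and with galactose and pyruvate that makes cells depend on oxidative phosphorylation. The WT cells carry no edit, and the PERK-KO cells come from CRISPR/Cas9 editing of EIF2AK3, the gene of the endoplasmic reticulum (ER) stress sensor PERK. Edited cells were grown up from single cells and the clone that was sequenced is not given in the sources used here, so the loss of PERK and differences between clones cannot be told apart. Both lines were used at passage 15 to 20, and each genotype is represented by 1 sample.

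Heat shock proteins of the cytosol fold new proteins, refold damaged ones and pass others on for degradation. HSP70 proteins bind exposed hydrophobic stretches of a client in a cycle driven by ATP, J-domain proteins such as DNAJB1 deliver clients and speed up ATP cleavage, and exchange factors such as HSPH1, HSPA4 and BAG3 release the nucleotide. HSP90 proteins take over clients, many of them kinases and receptors, at a later step, and small heat shock proteins such as HSPB1 hold unfolded proteins without using ATP. The inducible members are under the transcription factor HSF1, which binds heat shock elements when unfolded proteins build up in the cytosol. The ER has its own chaperones, which are induced instead by the unfolded protein response through PERK, IRE1 and ATF6.

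Expression was given as FPKM, the number of sequenced fragments scaled by transcript length and library size, with lower and upper confidence limits for each gene. These limits cover counting and read assignment within 1 library and not the variation between cultures. With 1 sample per genotype no difference could be tested, and no p-value is given. A gene was called higher or lower in PERK-KO cells when its FPKM differed by more than 1.5-fold and the confidence limits of the samples did not overlap. Genes entered the comparison when they were detected in both samples and reached 1 FPKM in WT or PERK-KO cells. Among these 14358 tested genes, 7.85% were called higher and 5.38% were called lower. When the values were rescaled to the same summed FPKM, an alternative chosen after seeing the data, the numbers moved from 1127 higher and 773 lower to 2621 and 277. This rescaling adds 0.22 to every log2 fold change, so that the median of all tested genes moves from 0.04 to 0.26.

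EIF2AK3 itself had an FPKM of 5.61 (limits 5.11 to 6.12) in WT and 3.89 (3.44 to 4.34) in PERK-KO cells. It was thus 1.44-fold lower, and the RNA level does not show whether protein was made. Of 9 genes fixed as markers of HEK293 cells, 6 reached 1 FPKM in each sample, among them KRT8, KRT18, VIM and NEFL, whereas PAX2 was below 1 in both. The neuronal filament genes INA and NEFM were far apart between the lines, at 0.458 and 4.13 FPKM for INA and at 0.662 and 5.21 FPKM for NEFM, each higher in PERK-KO cells with limits apart. Of 8 genes fixed as markers of other cell types, 3 reached 1 FPKM in each sample. These were COL1A1 at 4.97 FPKM in WT and 4.62 in PERK-KO cells, ADIPOQ at 1.68 and 1.42, and PECAM1 at 1.35 and 1.36. The 8 genes summed to 8.64 FPKM in WT and 7.77 in PERK-KO cells, and ALB and CD3E were listed at 0 in both. The files gave no read numbers. Depth was estimated from 289 genes with 1 transcription start and 5 to 60 fragments. They were selected because the widths of their limits came to whole fragments within 0.01. By these genes the PERK-KO library had 87.6% of the depth of the WT library, provided that FPKM was scaled by fragment totals alone.

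Before the values, the promoters of the members were searched for a sequence that some of them share. The 300 bases around the annotated transcription start, 250 upstream and 50 downstream (GRCh37, canonical transcripts of GENCODE 44), were searched on both strands for the heat shock element of 3 units, GAA, TTC and GAA, with any 2 bases between neighbours. It was present in 3 members, HSPA8, HSP90AA1 and HSPH1, and in 38 of 12412 promoters of tested genes (0.306%). The shorter form with a pair of units, GAANNTTC or TTCNNGAA, each of which reads the same on both strands and is contained in the longer form, was present in 7 members and in 8.91% of the promoters. HSPA4, HSP90AB1 and BAG3 had neither form in this window. Of the 8 listed ER counterparts, 0 had the longer form and 1 had the shorter one. The stretches below show every match to the longer form and, for the 4 members with the shorter form alone, every match to that form. HSP90AA1 and HSPH1 each held 1 more match to the shorter form, at -68 to -61 and at -139 to -132, which is not printed. Each is written 5′ to 3′ on the strand of the gene with the matched element in capitals.
HSPA8, -230 to -218 from the start, chr11:122933054-122933082, minus strand: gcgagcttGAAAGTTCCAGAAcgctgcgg
HSPA8, -55 to -43, chr11:122932879-122932907, minus strand: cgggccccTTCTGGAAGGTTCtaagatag
HSP90AA1, -88 to -76, chr14:102553449-102553477, minus strand: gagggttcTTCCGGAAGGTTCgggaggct
HSPH1, -59 to -47, chr13:31736080-31736108, minus strand: gccgcagaTTCTGGAAAGTTCtgatcagt
HSPA1A, -106 to -99, chr6:31783203-31783232, plus strand: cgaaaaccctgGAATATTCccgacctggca
HSPA1B, -105 to -98, chr6:31795399-31795428, plus strand: cgaaacccctgGAATATTCccgacctggca
DNAJB1, -77 to -70, chr19:14629268-14629297, minus strand: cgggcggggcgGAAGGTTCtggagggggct
DNAJB1, -47 to -40, chr19:14629238-14629267, minus strand: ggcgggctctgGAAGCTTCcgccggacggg
HSPB1, -182 to -175, chr7:75931797-75931826, plus strand: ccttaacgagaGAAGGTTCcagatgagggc
HSPA1A and HSPA1B carried the same element at nearly the same distance from the start. A match describes letters in the reference genome and not a bound site. Of the members with such elements, HSPA1A was higher and HSP90AA1 and HSPB1 were lower in PERK-KO cells with limits apart. The limits overlapped for HSPA1B, HSPA8, HSPH1 and DNAJB1. Of the members with neither form, BAG3 was higher and HSP90AB1 lower with limits apart, and the limits of HSPA4 overlapped. The values follow below.

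Most cytosolic heat shock genes had nearly the same FPKM in WT and PERK-KO cells. Of the 10 members, 1 was called lower, HSPB1, beside 5.38% of all tested genes, and 0 were called higher, beside 7.85%. Counts this small do not set the members apart from those shares. The log2 fold change was within 0.25 of zero in 7 members. The median over the 10 was -0.08, beside a median of 0.04 over all tested genes. After rescaling to the same summed FPKM these medians were 0.14 and 0.26. Without the threshold on size, the limits did not overlap in 5 members. Of these, BAG3 and HSPA1A were higher in PERK-KO cells and HSPB1, HSP90AA1 and HSP90AB1 were lower. Over all tested genes 26.3% were higher and 18.8% were lower by this rule. These counts of members depend on the scaling. After rescaling to the same summed FPKM, HSPA8 stood at 0.31, HSPA1A at 0.42 and BAG3 at 0.54. HSPA1B, HSPA4, HSPH1 and DNAJB1 lay between 0.13 and 0.24. HSP90AB1 turned to 0.086, while HSP90AA1 at -0.30 and HSPB1 at -0.78 stayed below zero. In these bulk samples, fewer cells that express a gene and less RNA per cell cannot be told apart.

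The 10 genes spanned a wide range of levels, and since FPKM is scaled by length their levels can be set side by side. In WT cells the order from high to low was HSP90AA1, HSP90AB1, HSPB1, HSPA8, HSPA1B, HSPA1A, HSPA4, DNAJB1, HSPH1 and BAG3. The limits of neighbours in that order were apart except for HSPH1 and BAG3. In PERK-KO cells HSP90AB1 took the place above HSP90AA1, HSPA8 the place above HSPB1, and BAG3 the place above HSPH1, and the limits of all neighbours were apart. HSP90AA1 ranked 186 of the tested genes in WT and 215 in PERK-KO cells. HSPB1 moved from rank 274 to rank 523 and BAG3 from rank 4200 to rank 3531. Summed over the 10 genes, FPKM was 2139 in WT and 1769 in PERK-KO cells. HSP90AA1 and HSPB1 together held nearly all of that net difference, since the sum of the other 8 members was lower by 12.9 FPKM. Those 8 did not all move alike, as HSP90AB1 was lower by 42.6 FPKM and HSPA8 higher by 22.9 FPKM. These sums are of FPKM as deposited and depend on the scaling. Rescaling to the same summed FPKM adds 0.22 to every log2 fold change.

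The HSP70 members comprise HSPA8 (HSC70), the constitutive chaperone that also uncoats clathrin vesicles, and HSPA1A and HSPA1B, the stress-inducible pair known as HSP72. HSPA8 lies on the minus strand of chromosome 11 at 122928200 to 122932901 (hg19, as are all gene positions here) and has 9 exons in its canonical transcript. Its FPKM was 332 (limits 318 to 346) in WT and 355 (340.4 to 370.2) in PERK-KO cells, so the limits overlapped. Transcripts of 10 other genes, among them the pseudogene HSPA8P1, contain 16.8% of its 50-base stretches. Its log2 fold change was 0.10 (interval 0.01 to 0.18, computed from the limits of both samples). HSPA8 made up 60.6% of the FPKM of these 3 genes in WT and 61.7% in PERK-KO cells, and their sum was 548 and 576.

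HSPA1A and HSPA1B are genes without introns that lie next to each other on the plus strand of chromosome 6, at 31783291 to 31785719 and 31795512 to 31798031. HSPA1A had 72.8 FPKM (70.2 to 75.3) in WT and 84.0 (81.1 to 87.0) in PERK-KO cells. HSPA1B had 143 FPKM (139 to 147) in WT and 136 (133 to 139.8) in PERK-KO cells. HSPA1A was thus higher in PERK-KO cells with limits apart, by 0.21 on the log2 scale, and HSPA1B differed by -0.07 with limits that overlapped. Their coding sequences of 1923 bases differ at 4 positions in the reference, and 93.9% of the 50-base stretches of each coding sequence occur in the transcript of the other gene. The last parts of the transcripts, beyond the coding sequence, shared 0 such stretches. A read that lies within such a stretch fits both genes equally well, and how the authors' tools divided them is not given in the sources used here. Taken as 1 value, an alternative chosen after seeing the data, the pair had 216 FPKM (211 to 220.1) in WT and 220.2 (216 to 225) in PERK-KO cells, which differ by 0.03 on the log2 scale. Each gene is also listed on 4 alternative haplotypes of chromosome 6, with an FPKM of 0 in both samples.

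The HSP110 members HSPA4 and HSPH1 are large relatives of HSP70 that act as its nucleotide exchange factors. HSPA4, on the plus strand of chromosome 5 at 132387662 to 132440709, had 54.6 FPKM (52.7 to 56.4) in WT and 55.4 (53.4 to 57.4) in PERK-KO cells. HSPH1 (HSP105), which is inducible by heat, lies on the minus strand of chromosome 13 at 31710763 to 31736117 and had 22.4 FPKM (21.3 to 23.5) and 21.1 (20.0 to 22.3). The limits overlapped for both genes. The interval of the log2 fold change ran from -0.05 to 0.09 for HSPA4 and from -0.19 to 0.03 for HSPH1. Their transcripts of 4774 and 5244 bases are the longest among the members. When the running median over neighbouring genes in the order of transcript length was subtracted, HSPA4 stood at -0.15 and HSPH1 at -0.27. DNAJB1 (HSP40), the heat-inducible J-domain partner of HSP70, lies on the minus strand of chromosome 19 at 14625582 to 14629201. It had 49.8 FPKM (47.6 to 52.0) in WT and 47.1 (44.8 to 49.3) in PERK-KO cells, with overlapping limits and a log2 interval from -0.18 to 0.01. A pseudogene, DNAJB1P1, shares 2.60% of its 50-base stretches.

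**Figure D1:**
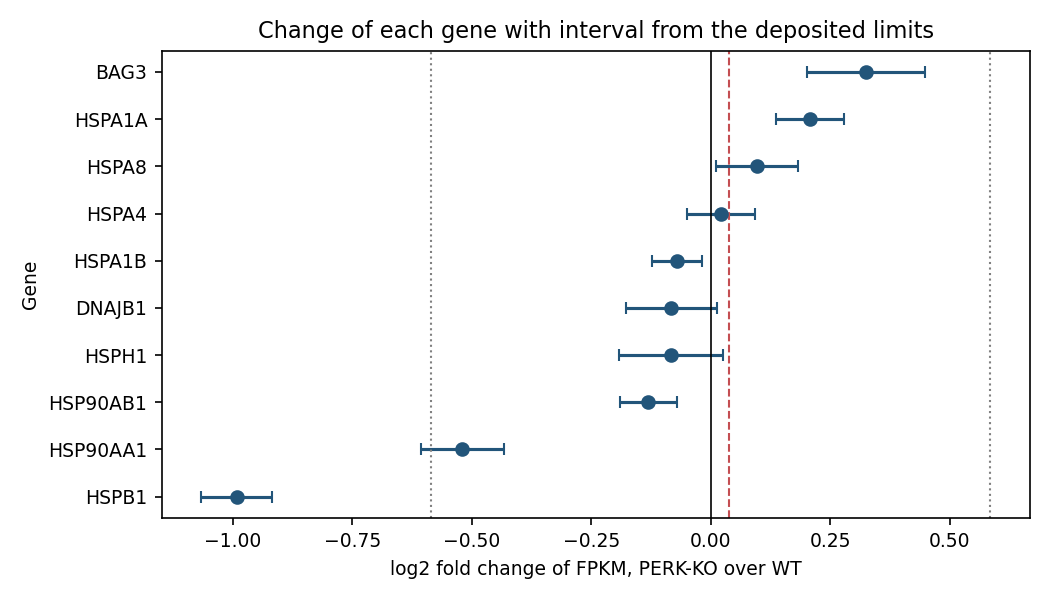
Log2 fold change of FPKM, PERK-KO over WT, for each member with the interval computed from the deposited confidence limits. The dotted lines mark 1.5-fold, the dashed line marks the median of all tested genes at 0.04, and the points run from -0.99 for HSPB1 to 0.33 for BAG3.

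BAG3 links HSP70 to small heat shock proteins and to selective autophagy of damaged proteins. The gene lies on the plus strand of chromosome 10 at 121410882 to 121437329. Its FPKM was 22.2 (20.8 to 23.5) in WT and 27.8 (26.1 to 29.4) in PERK-KO cells, with limits apart. The ratio of 1.25 was the highest among the members and was below the threshold of 1.5-fold. The log2 fold change was 0.33 (interval 0.20 to 0.45). BAG3 and HSPA4 shared 0 stretches of 50 bases with transcripts of other genes, and the same held for HSPH1. Copies outside the annotated transcripts were not searched.

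The HSP90 members are HSP90AA1, the inducible form, and HSP90AB1, the constitutive form, which differ in sequence but bind largely the same clients. HSP90AA1 is listed on chromosome 14 at 102547075 to 102606086 with 2 transcription starts, and its canonical transcript on the minus strand has 11 exons. It had 591 FPKM (566 to 616) in WT and 412 (394 to 429.8) in PERK-KO cells. The limits were far apart, and the gene was 1.43-fold lower in PERK-KO cells, just under the threshold. Its log2 fold change of -0.52 (interval -0.61 to -0.43) lay below that of all but 1295 tested genes. HSP90AB1, on the plus strand of chromosome 6 at 44213903 to 44221625, had 492 FPKM (476 to 507) and 449 (437 to 461). This was a log2 fold change of -0.13, with limits apart, and it turned to 0.086 after rescaling to the same summed FPKM, where HSP90AA1 stood at -0.30. HSP90AA1 gave 54.6% of the FPKM of the pair in WT and 47.9% in PERK-KO cells. This share does not change when a whole sample is rescaled by a single factor. Transcripts of other genes, mainly pseudogenes, contain 19.1% of the 50-base stretches of HSP90AA1 and 19.7% of those of HSP90AB1. A part of both values is therefore uncertain.

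HSPB1 (HSP27) binds unfolding proteins as large oligomers and associates with actin filaments. It lies on the plus strand of chromosome 7 at 75931875 to 75933614, with 3 exons. It had 359.6 FPKM (349 to 369.8) in WT and 181 (173 to 189) in PERK-KO cells. It was thus 1.99-fold lower in PERK-KO cells, the largest difference among the members, with a log2 fold change of -0.99 (interval -1.07 to -0.92). Just 243 of the 14358 tested genes had a lower log2 fold change. Its pseudogene HSPB1P1 is the main sharer of the 13.5% of its 50-base stretches that occur in other transcripts. The ratio of HSPB1 to its partner BAG3 was 16.2 in WT and 6.52 in PERK-KO cells.

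Transcript length and expression level moved with the direction of change over all genes. The canonical transcript of HSPB1 has 777 bases, the shortest among the members. The 733 tested genes with transcripts of 500 to under 1000 bases had a median log2 fold change of -0.38, and 21.8% of them were called lower. In the 4490 genes with 2000 to under 4000 bases, the range that holds 7 other members, the median was 0.03 and 3.90% were called lower. With the running median over transcript length subtracted, HSPB1 stood at -0.61 and HSP90AA1 at -0.59, and both were then called lower. The 1034 genes with a mean FPKM of at least 100 had a median of -0.25, and 16.8% of them were called lower. The means of 5 members were above that level. Of these, HSPB1, HSP90AA1 and HSP90AB1 were lower in PERK-KO cells with limits apart, and HSPA8 and HSPA1B had limits that overlapped, with log2 fold changes of 0.10 and -0.07. The part of transcript length or expression level in these differences was not tested.

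The ER relatives of the same chaperones had much larger differences. HSPA5 (BiP), the HSP70 of the ER, had 161 FPKM (158 to 164) in WT and 679 (672 to 685) in PERK-KO cells. Its log2 fold change exceeded that of HSPA8 by 1.98 (interval 1.89 to 2.07). There were 0.485 HSPA5 FPKM for each FPKM of HSPA8 in WT and 1.91 in PERK-KO cells. HSP90B1 (GRP94), the HSP90 of the ER, had 401 FPKM (384 to 419) and 848 (812 to 884), and its log2 fold change exceeded that of HSP90AB1 by 1.21 (1.10 to 1.32). HYOU1 (GRP170), the HSP110 of the ER, had 25.5 FPKM (24.1 to 26.9) and 133 (128 to 138), and exceeded HSPH1 by 2.46 (2.32 to 2.61). DNAJB11, a J-domain partner of HSPA5, had 54.3 FPKM (51.6 to 57.0) and 97.0 (93.2 to 101), and exceeded DNAJB1 by 0.92 (0.79 to 1.05).

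The HSP70 and HSP90 of mitochondria lay close to their cytosolic relatives. HSPA9 (mortalin), the HSP70 of mitochondria, had 105 FPKM (103 to 108) in WT and 109 (106 to 112) in PERK-KO cells, and its log2 fold change differed from that of HSPA8 by -0.05 (interval -0.15 to 0.05). TRAP1, the HSP90 of mitochondria, had 177 FPKM (169 to 184) and 173 (165 to 181), and differed from HSP90AB1 by 0.10 (-0.01 to 0.21). Over the listed counterparts, 7 of 8 ER genes were called higher and 0 lower, with SIL1, named after its values were seen, the exception at 17.4 and 17.2 FPKM. Of 7 mitochondrial genes 0 were called higher and 1 was called lower, HSPE1. The shares over all tested genes were 7.85% higher and 5.38% lower. With limits apart, the mitochondrial genes GRPEL2 and DNAJA3 were higher, at 0.43 and 0.30 on the log2 scale. HSPD1 and HSPE1 were lower, at -0.19 and -0.66. The higher level of ER chaperones was known from these data when the ER list was drawn up. The count of ER genes is therefore not independent evidence of its direction.

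Over the 6 lists of other chaperone genes, their regulators and heat-inducible genes, 62 genes were tested. Of these 2 were called higher (3.23%) and 4 were called lower (6.45%), beside 7.85% and 5.38% of all tested genes. Not all of these genes are cytosolic. The heat-inducible list holds HSPD1 and HSPE1, which are also listed as mitochondrial counterparts, and HSPE1 was among the 4 called lower. HSF1, the main regulator of the heat shock response, had 53.8 FPKM in WT and 62.9 in PERK-KO cells, with limits apart and a log2 fold change of 0.23. HSBP1, which binds HSF1 and dampens it, had 79.6 and 57.8 FPKM, also with limits apart. Among the 4 genes of the heat shock factor list, 0 were called in either direction. Of 17 co-chaperones of HSP70, 16 were tested, 1 was called higher and 1 lower. The lower gene was STUB1 (CHIP), a ubiquitin ligase that marks HSP70 and HSP90 clients for degradation, with 102 FPKM (95.9 to 107) and 62.4 (58.3 to 66.5). The higher gene was DNAJB5, named here after its values were seen, with 2.43 and 5.93 FPKM.

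Of 14 co-chaperones of HSP90, 0 were called higher and 0 lower, where the shares of all tested genes were 7.85% and 5.38%. Their log2 fold changes had a median of -0.04. STIP1 (HOP), which joins HSP70 to HSP90, had 154 and 184 FPKM, and FKBP4, a co-chaperone of steroid receptors, had 112 and 86.2 FPKM. Among 13 other cytosolic heat shock proteins, 7 did not reach the filter or were at 0 in a sample, among them the strictly inducible HSPA6, also named after its values were seen, at 0.273 and 0.208 FPKM. HSPA4L, a relative of HSPA4, was called higher with 7.28 FPKM (6.59 to 7.97) and 12.9 (11.9 to 13.9). HSPB9, named after its values were seen, was called lower at 2.04 and 0.273 FPKM with wide limits.

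The list of other heat-inducible genes holds 12 genes, and DNAJA1, CHORDC1, AHSA1 and STIP1 are also in the co-chaperone lists. Of the 12, 0 were called higher and 1, HSPE1, was called lower, with 162 and 103 FPKM. The shares of all tested genes were again 7.85% and 5.38%. With limits apart, 6 were lower and 1 higher, beside 18.8% and 26.3% of all tested genes. After rescaling to the same summed FPKM, 2 were lower and 5 higher with limits apart. HSPE1 is the co-chaperonin of mitochondria. UBB, a polyubiquitin gene, had 1879 and 1418 FPKM and was not past the threshold. The cytosolic chaperonin CCT folds actin and tubulin, and prefoldin delivers these clients to it. Of its 14 listed genes, 10 were lower in PERK-KO cells with limits apart, beside 18.8% of all tested genes, and 0 were higher. Of these genes PFDN5 alone was called lower, at 366 and 232 FPKM. CCT5 had 174 and 124 FPKM. The median log2 fold change of the list was -0.27, but 10 of its genes had a mean of at least 100 FPKM, a class with a median of -0.25 over all tested genes. After rescaling to the same summed FPKM the median was -0.055, beside 0.26 over all tested genes. At that scaling 5 genes of the list were lower and 3 higher with limits apart. The shares of all tested genes with limits apart are not given at that scaling. With the running median over transcript length subtracted, neither HSPE1, PFDN5 nor HSPA4L was called, and after rescaling to the same summed FPKM the same held for HSPE1, PFDN5 and STUB1.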

How the data were processed

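Polyadenylated RNA of 1 WT and 1 PERK-KO HEK293 sample was sequenced. Per the labels and methods, the authors mapped reads to GRCh37/hg19 with TopHat2 2.0.13 and computed FPKM with Cufflinks 2.2.1. The deposited tables hold FPKM with confidence limits and no counts, so no count model was used. How reads with several matches were divided is not given in the sources used here.

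Fold changes are PERK-KO over WT without a pseudocount, over 1 row per gene name on the main chromosomes. Intervals treat the deposited limits as 2 SD. Lengths, positions and promoters came from GENCODE 44 on GRCh37, where 86.4% of tested genes had a length. Shared stretches were counted as 50-base words in GENCODE transcripts. Running medians used 301 genes. Python 3.11.15, numpy 2.4.6, pandas 2.3.3 and matplotlib 3.10.9 were used, and the calls were tested on simulated data.

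The members and lists were chosen with earlier results of these data known. All members are named. From the 8 lists, the 2 genes furthest up and the 2 furthest down with an FPKM of at least 10 and limits apart could be named, with the counterparts. Likeness of pattern over 2 samples has no meaning and was not computed.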

Additional observations from a re-analysis of the deposited data

How the results depend on the processing

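No paired analysis was possible because each genotype has 1 sample, and leaving out a replicate was not possible for the same reason. Depth limits low genes most, and the limits of the members were 2.47% to 6.18% of their values on either side. The number of members called higher was 0 under every alternative run. The number called lower was 1, and became 0 at a 2-fold threshold, as HSPB1 was 1.99-fold lower, and 2 with the running median over transcript length subtracted, where HSP90AA1 joined HSPB1. HSPB1 ranged from -1.03 to -0.61 on the log2 scale and BAG3 from 0.29 to 0.54 over the alternatives. After rescaling to the same summed FPKM, an alternative added after seeing the data, the median of the members was 0.14, that of all tested genes 0.26, and HSP90AB1 reversed to 0.086.

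Over all tested genes, 1127 were called higher and 773 lower. The higher genes were 726 with a pseudocount of 1 and 703 with an FPKM of at least 5. Higher and lower genes were 610 and 490 with the length median subtracted, 293 and 151 at 2-fold, and 2621 and 277 at the same summed FPKM. With the length median subtracted, HSP90 co-chaperones and heat shock factors had 1 gene called lower each, other cytosolic heat shock proteins had 0 called higher, and other heat-inducible genes, chaperonin with prefoldin, and mitochondrial counterparts had 0 called lower. At 2-fold, HSP70 co-chaperones and these last 3 lists had 0 called lower and other cytosolic heat shock proteins 0 called higher. At the same summed FPKM, HSP70 co-chaperones, other heat-inducible genes, chaperonin with prefoldin and mitochondrial counterparts had 0 called lower, and mitochondrial counterparts had 1 called higher. Other cytosolic heat shock proteins had 0 called lower with an FPKM of at least 5, and 2 called higher with the limits ignored. The count of ER counterparts called higher was 7, and 6 at 2-fold. The shorter heat shock element was in 8.91% of promoters. The cause of these shifts was not tested.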
